A study of Rattus norvegicus with 8 samples.

Results

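The genes of the NRF2, thioredoxin and peroxide defence were followed in rat oligodendrocyte precursor cells deprived of oxygen and glucose. The list of 10 was chosen by symbol, and each member (Nfe2l2, Keap1, Nqo1, Txn1, Txnrd1, Prdx1, Srxn1, Cat, Sod1 and Sod2) had 1 row among the 32662 genes of the deposited table. The cells were primary cultures from the cerebral cortex of Sprague Dawley rats aged 1 to 2 days, taken as the non-adherent cells of mixed glial cultures grown with 20% serum. They then spent 4 to 5 days in Neurobasal medium that held 2% B27 supplement, PDGF and FGF at 10 ng/ml, 2 mM glutamine and 1% antibiotic. The 8 samples fell into a group of 4 deprived of oxygen and glucose for 6 h (OGD), which models ischaemia in a dish, and a group of 4 labelled Control. Messenger RNA was measured by RNA sequencing and given as FPKM, the fragments of a gene scaled by its length and by the library's total.

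NRF2, the product of Nfe2l2, is a transcription factor that binds antioxidant response elements and switches on detoxifying and redox genes. KEAP1 holds it in the cytoplasm and presents it to a CUL3 ubiquitin ligase, until oxidants or electrophiles modify cysteines of KEAP1. Thioredoxin passes electrons from NADPH, by way of thioredoxin reductase, to the peroxiredoxins, which reduce hydrogen peroxide. Superoxide dismutases make that peroxide from superoxide, and catalase breaks it down in peroxisomes. Oligodendrocyte precursors are known as cells with a weak antioxidant reserve, rich in iron and sensitive to ischaemia.

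The libraries carried the mark of the treatment: Vegfa averaged 266 ± 59.6 FPKM in OGD and 7.36 ± 0.949 FPKM in Control cells, and Slc2a1 averaged 46.5 ± 4.98 FPKM in OGD and 5.42 ± 0.797 FPKM in Control cells (SD, n = 4 each). All 8 tested genes of a list of the response to low oxygen rose. Ankrd37 among them stood at 19.0 to 21.1 FPKM in OGD and 0.195 to 0.756 FPKM in Control libraries. It reached the 1 FPKM needed for testing only in OGD libraries, which fixed its direction, so its call adds no support. Total fragment numbers are unknown, and relative depths read from the steps between low values ran from 0.816 to 1.18, with Control replicate 1 set to 1. Mitochondrially encoded genes held 20.4% of summed FPKM in OGD replicate 4, 23.4% to 30.4% in the other OGD libraries and 25.1% to 27.9% in Control libraries. Of all tested genes 22.7% passed as higher and 26.8% as lower in OGD, and the marker counts below stand beside those shares. No marker list was tested as a list. The precursor markers were present, though 5 of 9 fell and 0 rose, with Olig1 at 357 ± 28.0 FPKM in OGD and 794 ± 41.4 FPKM in Control cells. Ptprz1 averaged 271 ± 18.3 FPKM in OGD and 342 ± 42.8 FPKM in Control cells. Of 12 matched microglial markers 11 fell, 0 rose and none was listed at 0 throughout, with a median log2 change of -1.11. Their summed level was 101 to 173 FPKM in OGD and 268 to 416 FPKM in Control libraries, and C1qa averaged 19.3 ± 7.02 FPKM in OGD and 60.0 ± 14.8 FPKM in Control cells. Another microglial marker, Fcer1g, averaged 32.0 ± 7.45 FPKM in OGD and 60.5 ± 10.2 FPKM in Control cells. Of 6 tested astrocyte markers 2 fell, Gfap and S100b (log2 changes -1.09 and -0.75). The 2 most abundant astrocyte markers did not pass, with Slc1a3 at 60.1 ± 2.49 and Sox9 at 44.1 ± 5.96 FPKM in OGD, against 63.4 ± 2.67 and 37.1 ± 2.94 FPKM in Control cells. Of 9 neuronal markers 2 rose and 3 fell. The 2 most abundant were Map2, which did not pass, and Tubb3, which rose, with Map2 at 197 ± 37.1 and Tubb3 at 53.0 ± 7.17 FPKM in OGD, against 225 ± 28.7 and 30.2 ± 3.88 FPKM in Control cells. Of 8 matched markers of vessels and stroma 3 were listed at 0 throughout and 0 entered the test, with Kdr at 0.0992 ± 0.0483 and Cdh5 at 0.0332 ± 0.0399 FPKM in OGD, against 0.110 ± 0.0600 and 0.0899 ± 0.0329 FPKM in Control cells.

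The comparison asked which of these defence genes differed after 6 h of OGD. Keap1, the inhibitor, rose slightly, while Prdx1 and Sod2 fell to 0.754 and 0.722 of their Control level, and no member changed as much as 1.5-fold among those tested. Nfe2l2, Txn1, Txnrd1, Cat and Sod1 did not pass the test, and Nqo1 and Srxn1 were too low to enter it. To be tested, a gene had to reach 1 FPKM in 4 or more samples, which left 8 of the 10 members. The test was limma on log2(FPKM + 1) over all 11149 such genes, with Benjamini-Hochberg adjusted p and a threshold of 0.05, so changes of low genes are understated. Of all tested genes 49.5% passed, 22.7% with OGD higher and 26.8% with OGD lower. The changed members, 3 of 8 with 1 higher and 2 lower, made up no larger a share than that. The groups did not overlap in 2 of the 8, Keap1 and Sod2, and in 44.7% of all tested genes. The median log2 change was -0.08 over the 8 tested members and -0.04 over all tested genes. In bulk samples, fewer cells of a type and less RNA per cell cannot be told apart. The labels do not say whether the replicates came from separate cultures, and a p-value here covers the variation among these libraries, possibly technical, and no more.

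**Figure D1:**
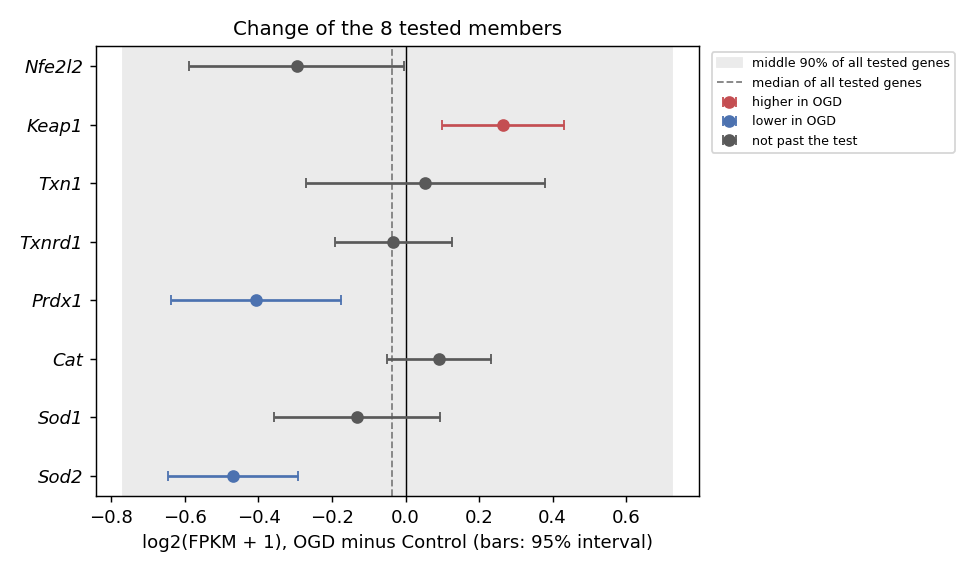
Log2 change (log2(FPKM + 1), OGD minus Control) of the 8 tested members, with 95% intervals from limma that are not adjusted for multiple tests. The grey band runs from the 5th to the 95th percentile of all 11149 tested genes (-0.77 to 0.72) and the dashed line marks their median. Keap1 lies to the right of 0, Prdx1 and Sod2 lie to the left, and all 8 points are inside the band.

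Nfe2l2 (ENSRNOG00000001548), the transcription factor itself, was a low transcript. It stood at 1.95, 2.54, 2.05 and 2.95 FPKM in OGD replicates 1 to 4, against 3.01, 3.04, 2.65 and 3.83 FPKM in Control replicates 1 to 4. OGD replicates 1 to 3 lay below every Control library, and OGD replicate 4 lay among them. Its log2 change, -0.30 ± 0.13 (SE), did not pass (limma, adjusted p = 0.0865, 95% interval -0.59 to -0.0033 before adjustment). Without OGD replicate 4 it passed, at -0.38 (adjusted p = 0.0379, range over 17 alternatives 0.0379 to 0.230). In both groups the highest Nfe2l2 value stood in replicate 4 and the next in replicate 2, and the summed microglial markers had the same 2 leading libraries. Those sums were 106, 120, 101 and 173 FPKM in OGD replicates 1 to 4, against 268, 292, 269 and 416 FPKM in Control replicates 1 to 4. The part of microglial RNA in the Nfe2l2 values was not tested.

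Keap1 (ENSRNOG00000020878), the adaptor that marks NRF2 for degradation, stood at 11.6, 11.5, 11.8 and 12.9 FPKM in OGD replicates 1 to 4. In Control replicates 1 to 4 it stood at 9.82, 9.59, 9.23 and 10.5 FPKM. Every OGD library lay above every Control library, as for 20.7% of all tested genes. On the FPKM + 1 scale Keap1 was 1.20-fold higher (95% interval 1.07 to 1.35, limma adjusted p = 0.0129), and it passed under all 18 alternatives tried. Each library held more Keap1 than Nfe2l2 per unit of length. The ratio of the 2 FPKM values was 5.99, 4.52, 5.74 and 4.36 in OGD replicates 1 to 4, against 3.26, 3.15, 3.48 and 2.73 in Control replicates 1 to 4. These ratios do not depend on the scaling of a library, and the 2 groups did not overlap. How often ratios of other gene pairs separate was not computed, so this is a description.

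Nqo1 (ENSRNOG00000012772), the quinone reductase long used as a readout of NRF2 activity, stood at 0.436, 0.744, 0.620 and 0.688 FPKM in OGD replicates 1 to 4. In Control replicates 1 to 4 it stood at 2.02, 0.685, 1.82 and 2.47 FPKM. Control replicates 1, 3 and 4 lay above all OGD libraries, and Control replicate 2 lay among the OGD values. Scaled by relative depth, the values stood in whole-number steps of 4, 6, 7 and 8 in OGD, against 20, 7, 20 and 26 in Control libraries, each within 0.1 of a step. If 1 step is 1 fragment, Nqo1 rested on 25 fragments in all OGD libraries together and 73 in all Control libraries together. The gene had at least 1 FPKM in too few samples to be tested. With no filter its log2 change was -0.72 (limma, adjusted p = 0.0285), and with a filter of 0.5 FPKM, chosen after its values were seen, adjusted p was 0.0141.

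**Figure D2:**
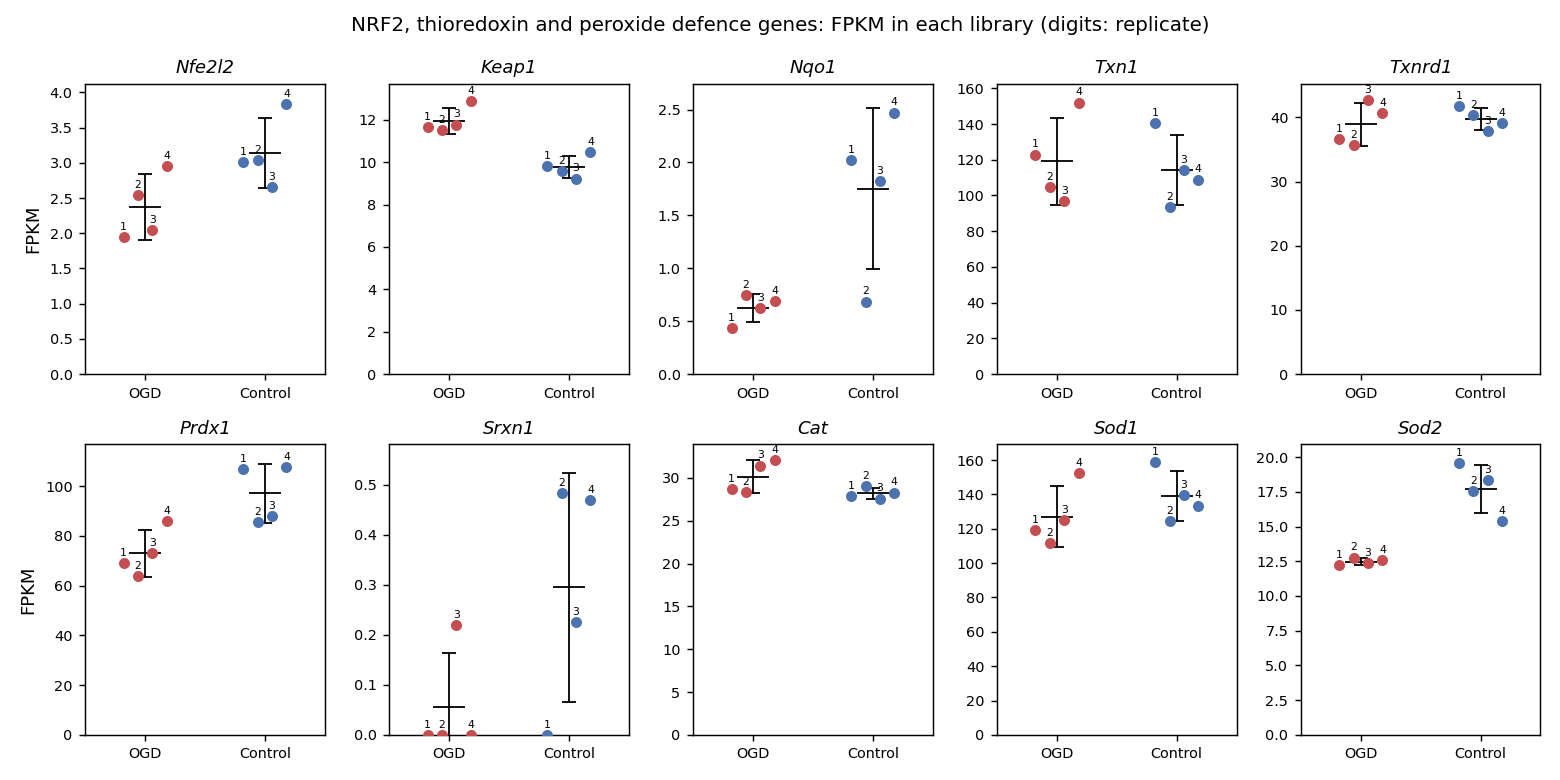
FPKM of each of the 10 members (vertical axes, from 0) in the 4 OGD and 4 Control libraries, with replicate numbers beside the points and the mean ± SD as a black bar. Keap1 and Sod2 separate the groups completely, Prdx1 barely overlaps, at 85.9 FPKM in OGD replicate 4 and 85.7 FPKM in Control replicate 2, and the points of Txn1, Txnrd1, Cat and Sod1 lie across each other.

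The thioredoxin pair differed by less than its spread. Txn1 (ENSRNOG00000012081), cytosolic thioredoxin, stood at 123, 105, 96.8 and 152 FPKM in OGD replicates 1 to 4, against 140.4, 93.3, 114 and 109 FPKM in Control replicates 1 to 4. The groups lay across each other, and the log2 change was 0.05 with a 95% interval of -0.27 to 0.38 (limma, adjusted p = 0.784). Its sign turned to -0.0692 without OGD replicate 4 and to -0.04 without Control replicate 2. Txnrd1 (ENSRNOG00000009088), the cytosolic selenoenzyme that recharges thioredoxin, stood at 36.6, 35.7, 42.7 and 40.7 FPKM in OGD replicates 1 to 4. In Control replicates 1 to 4 it stood at 41.8, 40.4, 37.8 and 39.1 FPKM. The log2 change was -0.03 with a 95% interval of -0.19 to 0.13 (limma, adjusted p = 0.731). The ratio of Txnrd1 to Txn1 averaged 0.337 ± 0.0758 in OGD and 0.355 ± 0.0574 in Control libraries (SD, n = 4 each).

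Prdx1 (ENSRNOG00000017194), the abundant cytosolic peroxiredoxin, fell. It stood at 69.1, 63.9, 73.2 and 85.9 FPKM in OGD replicates 1 to 4, against 107, 85.7, 88.0 and 108 FPKM in Control replicates 1 to 4. OGD replicate 4, the highest of its group, reached the lowest Control library. Prdx1 was at 0.754 of its Control level on the FPKM + 1 scale (95% interval 0.642 to 0.886, limma adjusted p = 0.00831), and adjusted p was 0.00196 to 0.0283 over 18 alternatives. Relative to Txn1, which donates electrons to it, Prdx1 stood at 0.562, 0.610, 0.756 and 0.565 in OGD replicates 1 to 4, against 0.762, 0.918, 0.772 and 0.990 in Control replicates 1 to 4. By symbol, RefSeq names 7 pseudogenes of Prdx1 and 1 of Sod2, and 1 like-named gene each for Prdx1 and Txn1. Copies under other symbols were not searched for. The values of members with copies are uncertain where fragments of those copies were counted.

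Srxn1 (ENSRNOG00000031167), sulfiredoxin, which restores peroxiredoxins that hydrogen peroxide has over-oxidized, was near the lower end of what these libraries could show. OGD replicate 3 held 0.219 FPKM, and the other 3 OGD libraries listed it at 0. In Control libraries it was listed at 0 in replicate 1 and at 0.484, 0.225 and 0.470 FPKM in replicates 2 to 4. Those values make 1 step in all OGD libraries together and 5 in all Control libraries together. A difference was not detectable at this depth (limma with no filter, log2 change -0.28, adjusted p = 0.142).

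Of the 2 superoxide dismutases, Sod2 fell and Sod1 did not pass, and the difference between their changes was not tested. Sod2 (ENSRNOG00000019048), the manganese enzyme of the mitochondrial matrix, stood at 12.2, 12.8, 12.4 and 12.6 FPKM in OGD replicates 1 to 4. In Control replicates 1 to 4 it stood at 19.6, 17.5, 18.4 and 15.4 FPKM. The OGD libraries lay close together (SD 0.249 FPKM, against 1.76 FPKM in Control libraries) and below every Control library, as for 24.1% of all tested genes. Sod2 fell to 0.722 of its Control level on the FPKM + 1 scale (95% interval 0.639 to 0.817, limma adjusted p = 0.000754), and adjusted p was 0.000536 to 0.00359 over 18 alternatives. Sod1 (ENSRNOG00000002115), the copper and zinc enzyme of the cytosol, stood at 119, 112, 125 and 152 FPKM in OGD replicates 1 to 4, against 159, 124, 139 and 134 FPKM in Control replicates 1 to 4. The groups overlapped, and the log2 change of -0.13 did not pass (95% interval -0.36 to 0.09, limma adjusted p = 0.308).

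The ratio of Sod2 to Sod1 was 0.102, 0.114, 0.0989 and 0.0824 in OGD replicates 1 to 4, against 0.123, 0.141, 0.132 and 0.115 in Control replicates 1 to 4, and the groups were apart by a small margin. The ratio of Txn2, the mitochondrial thioredoxin, to cytosolic Txn1 was also lower in OGD libraries. That ratio was 0.295, 0.356, 0.462 and 0.323 in OGD replicates 1 to 4, against 0.472, 0.648, 0.513 and 0.549 in Control replicates 1 to 4. These ratios are given as a description, with no test of their own. Whether they stand for mitochondrial genes as a set was not tested. Of other mitochondrial redox genes, Txnrd2 (log2 change -0.0087) and Prdx3 (-0.18) did not pass, and Glrx5 (-0.31) fell. The glutathione peroxidase Gpx1 also fell (-0.67). With libraries rescaled outside the mitochondrially encoded genes, the log2 change of Sod2 was -0.43 (limma, adjusted p = 0.00144).

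**Figure D3:**
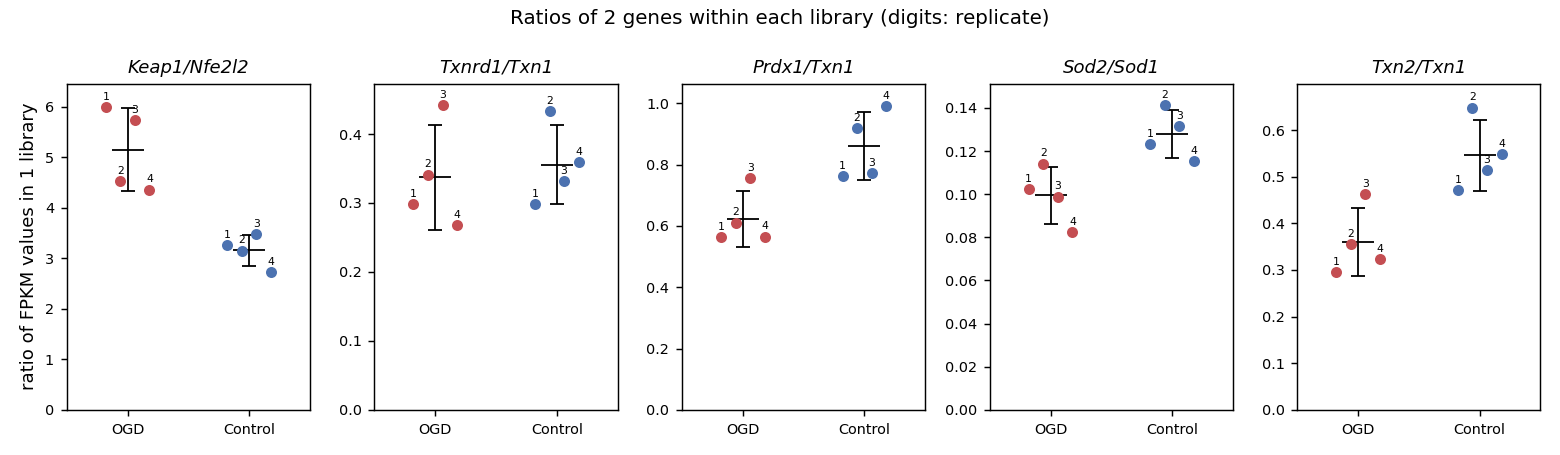
Ratio of the FPKM values of 2 genes within 1 library (vertical axes, from 0) in the 4 OGD and 4 Control libraries, with replicate numbers beside the points and the mean ± SD as a black bar. The groups are apart for Keap1/Nfe2l2, Prdx1/Txn1, Sod2/Sod1 and Txn2/Txn1, and lie across each other for Txnrd1/Txn1. The pairs were chosen by hand, and each ratio that is apart holds a gene that changed by itself (Keap1, Prdx1, Sod2 or Txn2). Among single tested genes 44.7% did not overlap, and the share over all gene pairs was not computed.

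Cat (ENSRNOG00000008364), catalase, stood at 28.7, 28.4, 31.5 and 32.1 FPKM in OGD replicates 1 to 4, against 27.9, 29.1, 27.6 and 28.3 FPKM in Control replicates 1 to 4. OGD replicates 3 and 4 lay above all Control libraries and the other 2 among them. The log2 change of 0.09 did not pass (95% interval -0.05 to 0.23, limma adjusted p = 0.264).

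The members spanned a wide range of levels per unit of length. In both groups their order by mean FPKM was Sod1, Txn1, Prdx1, Txnrd1, Cat, Sod2, Keap1, Nfe2l2, Nqo1 and Srxn1. In OGD libraries neighbours in that order overlapped for Sod1 with Txn1 and for Sod2 with Keap1. In Control libraries they overlapped for Sod1 with Txn1 and for Txn1 with Prdx1. Sod2 thus came to the level of Keap1 in OGD cells, at 12.5 ± 0.249 and 11.9 ± 0.626 FPKM, against 17.7 ± 1.76 and 9.78 ± 0.523 FPKM in Control cells (SD, n = 4 each). Of the 10 members 6 had their highest OGD value in OGD replicate 4, the library with the lowest share of mitochondrially encoded genes and the greatest relative depth. The part of that library's make-up in the members' values was not tested.

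The promoters of the 3 members that changed are shown for where they hold, or lack, letters that NRF2 or the hypoxia-inducible factors are known to bind. Each window runs from 250 bases before to 50 bases after the RefSeq transcript start, in GRCr8, which is not the build of the deposited table. All 10 members matched the promoter table, with 11 windows since Txnrd1 has 2. Capitals mark TGACNNNGC, the core of the antioxidant response element, and ACGTG or GCGTG, the core of the hypoxia response element, on either strand. Coordinates are chr5:135383656-135383955 on the plus strand for Prdx1, chr1:50050119-50050418 on the minus strand for Sod2 and chr8:28053993-28054292 on the minus strand for Keap1.
Prdx1: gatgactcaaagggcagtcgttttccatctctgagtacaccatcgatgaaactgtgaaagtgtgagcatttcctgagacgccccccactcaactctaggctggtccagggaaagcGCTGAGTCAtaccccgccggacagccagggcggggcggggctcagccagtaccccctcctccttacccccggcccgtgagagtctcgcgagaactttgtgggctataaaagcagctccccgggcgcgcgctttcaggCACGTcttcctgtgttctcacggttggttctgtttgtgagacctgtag
Sod2: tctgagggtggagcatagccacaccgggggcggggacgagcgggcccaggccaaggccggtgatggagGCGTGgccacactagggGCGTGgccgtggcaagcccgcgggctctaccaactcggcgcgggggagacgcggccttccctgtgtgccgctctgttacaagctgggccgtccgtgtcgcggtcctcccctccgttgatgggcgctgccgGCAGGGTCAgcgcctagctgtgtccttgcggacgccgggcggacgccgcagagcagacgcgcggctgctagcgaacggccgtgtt
Keap1: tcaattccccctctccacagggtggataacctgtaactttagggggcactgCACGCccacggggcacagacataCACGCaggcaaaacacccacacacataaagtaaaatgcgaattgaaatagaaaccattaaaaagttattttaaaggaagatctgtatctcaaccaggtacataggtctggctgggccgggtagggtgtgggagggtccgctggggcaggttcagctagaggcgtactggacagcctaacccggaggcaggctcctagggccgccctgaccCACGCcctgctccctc
In Prdx1 the antioxidant core lay at -135 to -127 on the minus strand as TGACTCAGC, where it overlaps an AP-1 site (TGACTCA, at -133 to -127). In Sod2 it lay at -35 to -27 on the minus strand as TGACCCTGC, and Keap1 held none in this window. Of the members that did not pass, Nfe2l2 held TGACGCCGC at 39 to 47 on the plus strand, and the second window of Txnrd1 held TGACAAAGC at -78 to -70 on the minus strand. The antioxidant core was thus in 4 of the 11 windows of the members, against 12.1% of all 33469 promoter windows. The members were chosen as genes of this pathway, so such shares are a description and no test. The hypoxia core was in 8 of the 11 windows, from 8 members (all but Nfe2l2 and Cat), against 41.6% of all windows. Keap1 held 3 matches on the minus strand, Sod2 held 2 on the plus strand, at -182 to -178 and -165 to -161, and Prdx1 held 1 at 3 to 7. The AP-1 letters were in 2 of the 11 windows, those of Prdx1 and Srxn1, against 4.63% of all windows. A match is a run of letters and not a binding site, and its absence concerns only this window.

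Partners and regulators of NRF2 went both ways. Of 11 tested, 3 rose, 2 fell and 6 did not pass, where 49.5% of all tested genes passed. Their median log2 change was 0.02. Maff lay below the filter and was at 0.44 on the log2 scale with no filter (limma, adjusted p = 0.0342). Mafg, a small MAF protein that binds DNA together with NRF2 or with its competitor BACH1, averaged 17.0 ± 2.49 FPKM in OGD and 10.6 ± 1.40 FPKM in Control cells (SD, n = 4 each, limma adjusted p = 0.00108). Cul3, the scaffold of the KEAP1 ligase, and Fbxw11, a subunit of another ligase that acts on NRF2, were the other 2 that rose, at 0.31 and 0.25 on the log2 scale. Dpp3, a KEAP1-binding protein, averaged 9.84 ± 0.823 FPKM in OGD and 14.2 ± 1.53 FPKM in Control cells (adjusted p = 0.00149). Rbx1, the RING subunit of the ligase, fell by 0.23 on the log2 scale (limma, adjusted p = 0.0110), and this call was lost with quantile normalization (adjusted p = 0.149).

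Of 18 tested genes among the others known as NRF2 targets, 7 fell, 1 rose and 10 did not pass, with a median log2 change of -0.16, where 49.5% of all tested genes passed. Another 5 lay below the filter. With no filter Slc7a11 was at 0.75 on the log2 scale (limma, adjusted p = 0.000206) and Osgin1 at 0.26 (adjusted p = 0.0485). Akr7a3 went the other way, at -0.24 (adjusted p = 0.0111). These below-filter genes were named after their values were seen. Gstp1, a glutathione transferase, averaged 169 ± 6.12 FPKM in OGD and 294 ± 33.3 FPKM in Control cells (limma, adjusted p = 2.55e-05). Blvrb, a biliverdin reductase, averaged 4.78 ± 0.737 FPKM in OGD and 8.97 ± 1.16 FPKM in Control cells (adjusted p = 0.000332). The 1 that rose was Hmox1, the heme oxygenase, a gene that other stress pathways also induce. It stood at 16.5, 21.7, 19.9 and 24.9 FPKM in OGD replicates 1 to 4, against 11.6, 12.9, 12.1 and 17.5 FPKM in Control replicates 1 to 4 (log2 change 0.58, adjusted p = 0.00588). The highest Control library exceeded the lowest OGD library.

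In the rest of the thioredoxin and glutaredoxin system 5 of 14 tested genes fell, 1 rose and 8 did not pass. Their median log2 change was -0.25, and 49.5% of all tested genes passed. Txnip, which binds and inhibits thioredoxin, averaged 0.280 ± 0.156 FPKM in OGD and 8.25 ± 0.549 FPKM in Control cells. It reached 1 FPKM only in Control libraries, so the filter fixed the direction of its call. Txn2 averaged 41.9 ± 6.15 FPKM in OGD and 61.2 ± 3.40 FPKM in Control cells (limma, adjusted p = 0.000863). Txndc17, a thioredoxin-like protein, averaged 14.5 ± 0.792 FPKM in OGD and 19.9 ± 1.02 FPKM in Control cells (adjusted p = 0.000556). The 1 that rose was Txnl1, a thioredoxin-like protein of the proteasome, at 0.24 on the log2 scale.

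Among the other enzymes that remove peroxide and superoxide, 5 of 10 tested fell, 0 rose and 5 did not pass. Their median log2 change was -0.20, and of all tested genes 49.5% passed, 26.8% with OGD lower. Gpx1, a glutathione peroxidase, stood at 27.2, 25.3, 25.1 and 29.7 FPKM in OGD replicates 1 to 4, against 51.8, 35.4, 39.7 and 47.9 FPKM in Control replicates 1 to 4 (limma, adjusted p = 0.000659). All 4 OGD libraries lay below all Control libraries. Gpx3, a secreted glutathione peroxidase, averaged 11.7 ± 0.749 FPKM in OGD and 18.5 ± 2.97 FPKM in Control cells (adjusted p = 0.000803). Prdx6, a peroxiredoxin that also acts on lipids, averaged 31.4 ± 2.47 FPKM in OGD and 40.6 ± 1.34 FPKM in Control cells (adjusted p = 0.00145). Prdx4, of the endoplasmic reticulum, and Ccs, the copper chaperone of SOD1, were the other 2, at -0.36 and -0.22 on the log2 scale.

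Selenoproteins, which like thioredoxin reductase carry selenocysteine, had members on both sides. Of 16 tested 5 fell, 2 rose and 9 did not pass, with a median log2 change of -0.13. Selenon, of the endoplasmic reticulum, averaged 31.0 ± 1.71 FPKM in OGD and 41.6 ± 3.99 FPKM in Control cells (limma, adjusted p = 0.00149). Selenoi, an enzyme of phospholipid synthesis, averaged 27.1 ± 4.15 FPKM in OGD and 15.8 ± 3.42 FPKM in Control cells (adjusted p = 0.00248), and Selenoo was the other that rose, at 0.39 on the log2 scale. Gpx1 and the 3 thioredoxin reductases belong to this list too. None of these lists was tested as a list, and the shares that passed stand beside the 49.5% of all tested genes. In the same libraries the microglial markers had a median log2 change of -1.11, and their part in the changes of these lists was not tested. Genes named as the few of their kind in a list were chosen after their values were seen.

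**Figure D4:**
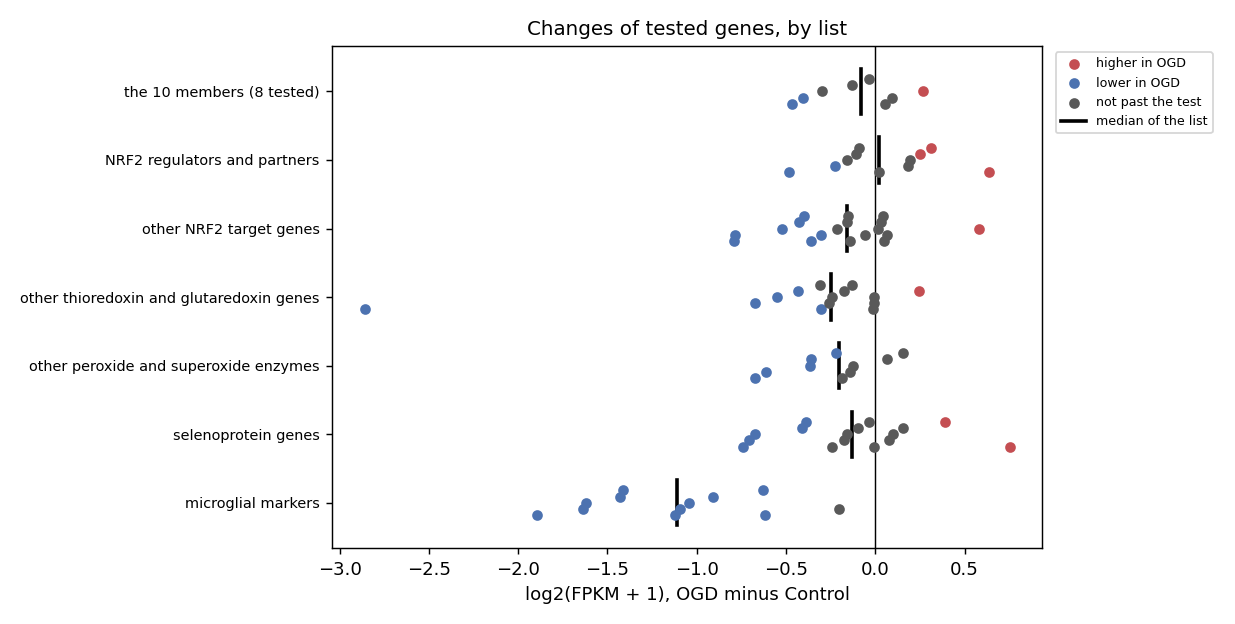
Log2 change (log2(FPKM + 1), OGD minus Control) of each tested gene, in 1 row per list, coloured by the limma call and with the list's median as a black bar. The 8 tested members lie between -0.47 and 0.26, Txnip stands alone at -2.86, and the microglial markers have the lowest median.

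Over the 8 libraries, the genes of at least 5 FPKM whose log2 values went most closely with those of Nfe2l2 were Ctsd (Pearson r = 0.969), Gbas (0.967) and Ctsz (0.960). Ctsd and Ctsz encode lysosomal cathepsins. For Nqo1 they were Aaas (Pearson r = 0.970), Pop4 (0.969) and Clns1a (0.961). The 8 libraries fall into 2 groups, so these r values hold the difference between groups and are given as a description. The genes named are the 3 nearest among tested genes with a mean of at least 5 FPKM. Genes without a symbol, or named by a clone or locus identifier, were left out. Ctsz averaged 6.89 FPKM in OGD and 15.0 FPKM in Control cells, and Pop4 averaged 18.4 FPKM in OGD and 26.4 FPKM in Control cells.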

How the data were processed

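Column-purified RNA went into strand-specific libraries, per the labels' protocols, and were read on a MiSeq, as the design text of the series says. The table the authors deposited holds 1 column of FPKM per sample, per the file headers. Trimmomatic, FastQC and build rn6 (Rnor_6.0) are named in the submitters' processing notes. How strand was used, the annotation release, the aligner and the FPKM program are not given in the sources used. FPKM holds no counts, so no count test was run and no counting interval could be made. A 0 can also be an estimate that failed.

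Samples were grouped by their titles. Genes reaching 1 FPKM in 4 or more samples (11149 of 32662) were tested as log2(FPKM + 1) with limma 3.58.1 (R 4.3.3; empirical Bayes with trend, group only), with Benjamini-Hochberg adjustment over all of them. The test was checked on simulated data. Relative depth came from ratios between values of at most 0.5 FPKM, of which 75.8% to 79.0% were whole-number ratios within 0.01 on the log2 scale. No 2 samples held identical values.

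The members and lists were chosen with earlier results of these data known. Named genes were the 10 members, the 3 tested genes of smallest p in each related list, the 2 highest of each marker list, Vegfa, Slc2a1, and the 3 genes closest to Nfe2l2 and to Nqo1. A gene that this rule names is not reported here. Older symbols came from RefSeq (GRCr8) and matched 10 selenoproteins. Pgd, Selenot, Sephs2, Itgam, Lhfpl3 and Pecam1 were not matched and not analysed here. The table gives no gene positions, and promoters are RefSeq's (GRCr8). Alternatives were quantile normalization, median-centring, rescaling outside mitochondrially encoded genes, other filters, a pseudocount of 0.1, limma without trend, a replicate block and left-out samples. Tables were made with pandas 2.3.3 and numpy 2.4.6 under Python 3.11.15, and plots with matplotlib 3.10.9.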

Additional observations from a re-analysis of the deposited data

Results flagged for a closer look

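In 86 groups of 4 libraries, 1 for each named gene and condition with differing values, 1 library stood far from the other 3 in 4 cases, where chance gives about 4.3. Srxn1 was at 0.219 FPKM in OGD replicate 3, which is 1 step for this gene, and listed at 0 in the other 3 OGD libraries. Mafg was at 8.48 FPKM in Control replicate 1 and at 11.1 to 11.4 FPKM in the other 3 Control libraries. C1qa was at 81.9 FPKM in Control replicate 4 and at 49.4 to 55.0 FPKM in the other 3. That library was also the highest Control library for 4 members, Nfe2l2, Keap1, Nqo1 and Prdx1. Control replicate 1 was the highest for as many, 4 members, namely Txn1, Txnrd1, Sod1 and Sod2. Clns1a was at 49.5 FPKM in OGD replicate 4 and at 44.7 to 45.1 FPKM in the other 3 OGD libraries.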

How the results depend on the processing

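Of the 8 tested members, Keap1, Prdx1 and Sod2 kept direction and call under all 18 alternatives, with log2 changes of 0.23 to 0.30, -0.49 to -0.29 and -0.53 to -0.42. Among its alternatives Nfe2l2 passed only without OGD replicate 4 (-0.38), and over the left-out libraries it lay between -0.38 and -0.22. Over the left-out libraries Txn1 lay between -0.0692 and 0.16, and Txnrd1 lay between -0.0779 and 0.0066. Txnrd1 was at 0.00073 with quantile normalization and at 0.0037 after rescaling outside mitochondrially encoded genes. The causes were not tested. The number of members that changed was 3 to 4. Of the genes of the related lists, the low-oxygen list included, 38 changed, with 31 to 40 over the alternatives, and of all tested genes 5519, with 4716 to 5450 over the left-out libraries. Among other named genes, Slc1a3 turned to 0.0020 with quantile normalization. Over the alternatives 6 calls of other named genes were lost and 7 were gained, and 534 results kept sign and call. Ctsd lost its call with quantile normalization (limma, adjusted p = 0.0940), and the adjusted p of Ptprz1 reached 0.104.

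Over all tested genes, same-numbered libraries did not go together. Their deviations from the group means had correlations of -0.22, 0.16, 0.01 and 0.09 for replicates 1 to 4. The numbers were therefore not taken as pairs. Single genes could differ, as Nfe2l2 and the summed microglial markers had the same leading replicate numbers in both groups. With the block the SE fell from 0.212 to 0.0808 for C1qa and from 0.105 to 0.0754 for Prdx1. For Cat it rose from 0.0643 to 0.0718. With the replicate number as a block 5509 genes and 3 members changed, and no member's call differed. Nfe2l2 had adjusted p = 0.0580 with the block. Total fragment numbers are unknown, and Nqo1 and Srxn1, the 2 lowest members, lay below the filter.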

Other observations

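Slc7a11, the cystine transporter that feeds glutathione synthesis and a target of both NRF2 and ATF4, lay below the filter and was singled out after its values were seen. It stood at 0.886, 0.585, 0.879 and 1.00 FPKM in OGD replicates 1 to 4, against 0.0823, 0.0797, 0.0742 and 0.124 FPKM in Control replicates 1 to 4, with no overlap. With no filter its log2 change was 0.75 on the log2(FPKM + 1) scale (limma, adjusted p = 0.000206). Among the genes of the same list below the filter, Osgin1 was at 0.26 (adjusted p = 0.0485) and Akr7a3 at -0.24 (adjusted p = 0.0111) without a filter.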
